A study of Mus musculus with 4 samples.

Results

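Neurons rich in Ppp1r1b and Crym, found in tissue punches of the mouse BNST (bed nucleus of the stria terminalis, which lies beside the striatum), are described here. They were chosen from measured counts of unique molecular identifiers (UMIs, 1 for each captured transcript) in Drop-seq libraries, in which single cells are captured in droplets with barcoded beads. Barcodes with 400 or more detected genes were kept if mitochondrial genes gave no more than 10% of their UMIs. At least 0.6% of a barcode's UMIs had to come from the neuronal genes Snap25, Syt1, Stmn2, Snhg11 and Meg3, and at least 1 from the GABA genes Gad1, Gad2 and Slc32a1. It then needed at least 2 UMIs of Ppp1r1b and Crym together and fewer than 2 of Prkcd. This gave 218 cells, of 2283 GABAergic neurons, 2489 neurons and 4239 barcodes that passed the gene and mitochondrial limits. The study has a single group, wildtype male C57BL/6J mice with no treatment named, and 4 libraries called batches in the labels. Each library pooled punches of 6 mice, whose age is not given in the sources used here. The spread given is therefore that between 4 pools, and p-values cover no more than these pools. Those of the gene tests use a variance estimated in part over all tested genes. A gene can therefore pass although its own libraries disagree.

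Striatal spiny projection neurons are GABAergic cells that receive dopamine and glutamate on dendritic spines and pass dopamine signals on through cyclic AMP. Ppp1r1b encodes a phosphatase inhibitor that is switched by dopamine receptors through cyclic AMP, and Crym encodes mu-crystallin, a cytosolic protein that binds thyroid hormone. In the striatum, direct pathway spiny neurons are known by the dopamine receptor Drd1a with the peptide precursors Tac1 (substance P) and Pdyn (dynorphin). Indirect pathway spiny neurons are known by the dopamine receptor Drd2, the adenosine receptor Adora2a, the orphan receptor Gpr6 and the enkephalin precursor Penk. The punches carry no position for any cell, so whether a cell lay in the BNST or in adjoining striatum cannot be told apart.

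The libraries held 72, 33, 36 and 77 of these cells, which are 9.99%, 7.01%, 8.98% and 11.2% of the GABAergic neurons of libraries 1 to 4 (9.28% ± 1.76, SD, n = 4). The exact (Clopper-Pearson) 95% intervals run from 4.87% to 9.70% in library 2 and from 8.91% to 13.7% in library 4, and cover counting error only. The share depends on depth: with every cell thinned to 1000 UMIs it was 4.37% ± 1.51, with 273 shallower cells left out, and at 2000 UMIs it was 7.78% ± 1.65. The 218 cells held 845853 UMIs, from 131102 in library 2 to 360586 in library 1, against 8188455 in the other 2065 GABAergic neurons. Their median depth was 4902, 4153, 3420 and 2568 UMIs a cell, above the 4337, 3683, 2925 and 2538 of the other GABAergic neurons in each library (p = 0.13 by an exact permutation of signs, two-sided, which is the smallest value possible with 4 libraries). With a minimum of 800 genes a cell the direction turned, with a mean difference of -111.75 UMIs and 1 of 4 libraries higher. No barcode of these cells was shared between libraries, 4 of the cells were called doublets by Scrublet and kept, and 16 had an undetermined base in the barcode.

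Ppp1r1b and Crym chose the cells, so their levels are a description. Levels are given in CPM, the UMIs of a gene per 1000000 UMIs, from UMIs summed over all cells of a class in a library. Ppp1r1b (chromosome 11, 98348404 to 98357796, plus strand of GRCm38) was at 635, 717, 767 and 1078 CPM in libraries 1 to 4, against 12.0, 8.69, 14.0 and 19.1 in the other GABAergic neurons. Crym (chromosome 7, 120186380 to 120202111, minus strand) was at 499, 427, 601 and 629, against 8.11, 8.12, 6.65 and 12.9. Both genes had a UMI in 140 of the cells, 46 had Ppp1r1b without Crym and 32 had Crym without Ppp1r1b. Among kept barcodes below the neuronal limit and with no GABA gene UMI, 1.11% had a Ppp1r1b UMI and 5.21% a Crym UMI, at a median depth of 1129 UMIs.

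Each gene marked cells in which the other was also high. In the 154 cells chosen on at least 2 Ppp1r1b UMIs alone, Crym was at 554, 406, 607 and 592 CPM, against 20.9, 17.6, 25.1 and 35.9 in the remaining GABAergic neurons. The log2 difference was 4.46 (SE 0.15, adjusted p = 1.09e-33, higher in 4 of 4 libraries). In the 109 cells chosen on at least 2 Crym UMIs alone, Ppp1r1b was at 712, 672, 710 and 1001, against 37.7, 36.3, 44.2 and 88.1. That log2 difference was 3.93 (SE 0.15, adjusted p = 5.18e-62, 4 of 4 libraries). In both directions the ranges over libraries were far apart.

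The name striatal-like spiny neurons was set beside Arpp21 and Foxp1, which the rule did not count. Both were given as markers together with the rule, and the cells were chosen with earlier results of these data known. Their rise is thus a description and not an independent check of the name. Arpp21 (chromosome 9, 112065091 to 112235938) encodes a cyclic AMP-regulated phosphoprotein that is abundant in striatum. Its level was 3697, 3021, 2715 and 3157 CPM in libraries 1 to 4, against 285, 256, 322 and 346 in the other GABAergic neurons (10.6-fold, log2 difference 3.41, SE 0.08, adjusted p = 9.32e-59). Foxp1 (chromosome 6, 98925338 to 99522721), a transcription factor of striatal projection neurons, was at 308, 191, 478 and 481, against 39.0, 35.9, 72.5 and 66.9 (log2 difference 2.81, SE 0.14, adjusted p = 1.48e-32). Neither gene's groups overlapped. Of all 8945 genes tested, 6.10% had all 4 libraries above the other GABAergic neurons without overlap and 7.40% all 4 below. Arpp21 had a UMI in 200 of the 218 cells and Foxp1 in 109, against 844 and 314 of the 2065 other GABAergic neurons. Both markers were thus higher in the cells that Ppp1r1b and Crym chose, so these values do not go against the name.

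**Figure D1:**
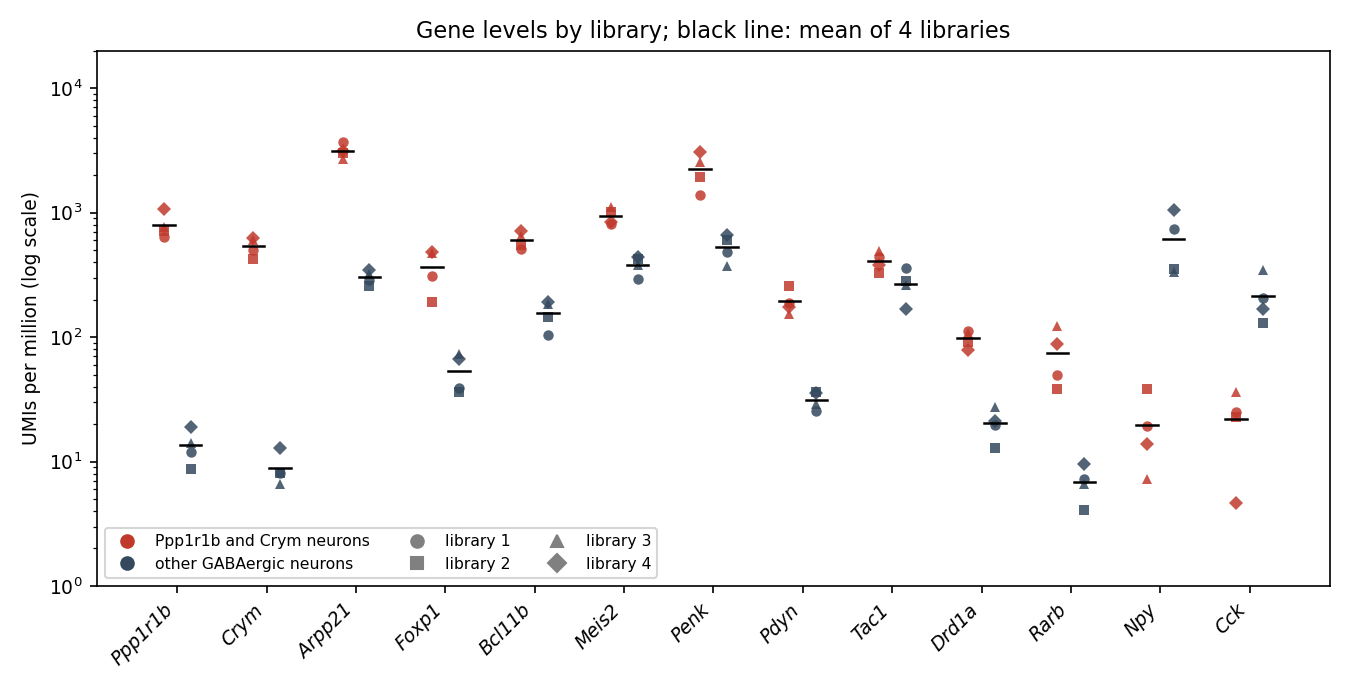
CPM of 13 genes (log scale) in the Ppp1r1b and Crym neurons and in the other GABAergic neurons, 1 point a library and a line at the mean of 4. The levels of Ppp1r1b and Crym were set by the choice of cells, and Arpp21, Foxp1, Bcl11b and Penk lay higher in every library, while Npy and Cck lay lower.

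Over all genes that passed the low-count filter, 1612 of 8945 (18.0%) differed at an adjusted p under 0.05. Of these, 803 (8.98%) were higher in the Ppp1r1b and Crym neurons and 809 (9.04%) were lower, and 1435 differed the same way in all 4 libraries. The median log2 difference of all tested genes was -0.01. The shares of 8.98% higher and 9.04% lower are the background for each list count against the other GABAergic neurons below. The genes the rule counts were left out of these and all later counts. A gene nearly absent from 1 class passed the low-count filter through the other class only, so only 1 direction could be called. Without library 1, the deepest, 519 were higher and 440 lower, and with cells thinned to 1000 UMIs 251 and 212.

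The 10 genes furthest above the other GABAergic neurons were led by Scn4b, the sodium channel beta subunit of resurgent current, at 27.7, 30.5, 72.4 and 64.8 CPM, against 1.201, 1.16, 2.96 and 2.81 (log2 difference 4.51, SE 0.47). All 4 libraries of the Ppp1r1b and Crym neurons lay above all 4 of the others. Fam212b followed (log2 4.13), then Prkch, a protein kinase C (3.92), and Gabrd, the delta subunit of GABA receptors outside the synapse (3.68). Col6a1, a collagen chain, had a log2 difference of 3.55 and Lpl, lipoprotein lipase, one of 3.50. Arpp21 (3.41), the actin-binding Nexn (3.37), the retinoic acid receptor Rarb (3.29) and the thyroid hormone-inactivating deiodinase Dio3 (3.16) complete the set. Apart from Arpp21 they rest on few molecules in the 218 cells, from 24 UMIs for Prkch to 115 for Col6a1.

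The 10 genes furthest below were genes without a single UMI in the 218 cells. They passed the low-count filter only through the other GABAergic neurons. A count of 0 allows up to 3.55 CPM over the group, and the folds here are bounds against that floor of 3 counts. Gal, the galanin precursor, had 2047 UMIs in the other GABAergic neurons (269.6, 515, 92.4 and 75.9 CPM) and was at least 70.5-fold lower. Slc17a8, the vesicular glutamate transporter of some GABAergic and serotonergic cells, had 483 UMIs there and was at least 16.6-fold lower. Crhbp, which binds corticotropin-releasing hormone, was at least 10.8-fold lower, and Fam159b at least 10.2-fold lower. The others, Tmem176b, Zeb2, Cox6a2, Fam211b, Cthrc1 and Ndst4, were at least 7.92-, 7.85-, 5.96-, 4.61-, 4.44- and 4.34-fold lower. These zeros give the level of the group as under that floor, and not the absence of the RNA from each cell.

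Genes of striatal cyclic AMP and calcium signalling were higher nearly throughout. Of 24 tested genes in this list, 21 were higher and 1 was lower, with a median log2 difference of 1.26 against -0.01 over all genes. The G protein subunits Gng7 and Gnal, which couple dopamine and adenosine receptors to adenylyl cyclase, had log2 differences of 2.47 and 1.64. Adcy5, that cyclase, had 1.54, with 1 overlapping library, 53.4 in library 2 against up to 58.4 elsewhere. The phosphodiesterases Pde7b, Pde1b and Pde10a, which break cyclic nucleotides down, had 1.87, 1.80 and 1.70. The calcium sensor Hpca had 1.74, the regulator Rgs9 1.44 and the striatal phosphatase Ptpn5 1.08. Rasgrp2, a calcium-regulated exchange factor that also marks spiny neurons, was the member that was lower (11.1 ± 5.23 against 32.6 ± 5.89 CPM, log2 -1.47, adjusted p = 8.83e-03). Its call was lost without library 1 (log2 -1.44, adjusted p = 0.0959). With each library left out in turn 20 or 21 members were higher, and with DESeq2 or with thinned cells 19.

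**Figure D2:**
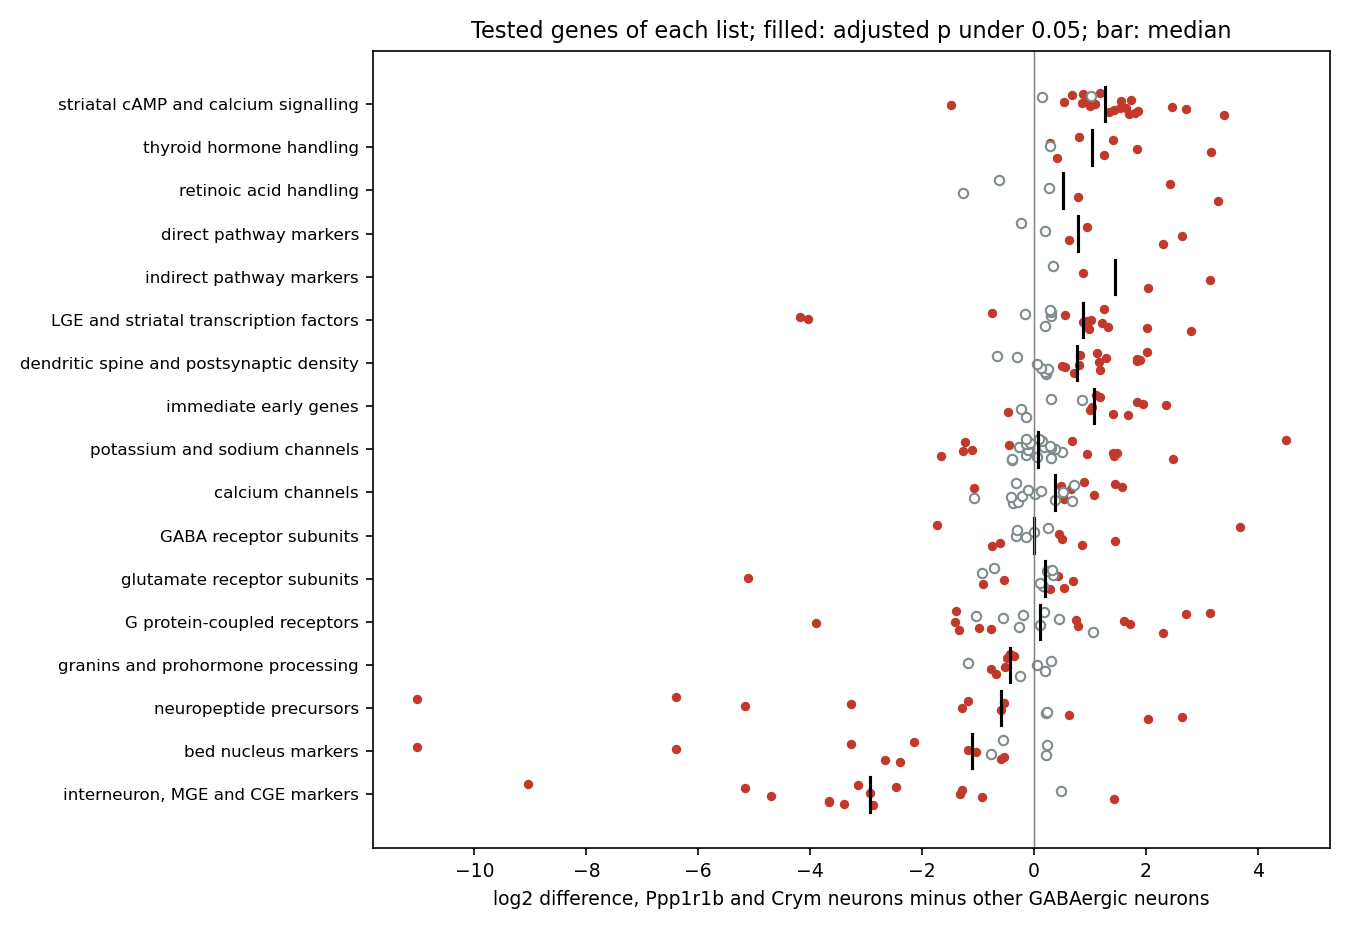
Log2 difference between the Ppp1r1b and Crym neurons and the other GABAergic neurons for each tested gene of 17 lists, filled where the adjusted p is under 0.05, with a bar at the list's median. The medians run from 1.45 for the 4 tested indirect pathway genes and 1.26 for cyclic AMP and calcium signalling to -2.93 for interneuron genes.

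Direct and indirect pathway genes were both higher. Of 6 tested direct pathway genes 4 were higher and none was lower, and 2 were higher without the library block. Pdyn was at 189, 259, 152 and 176 CPM, against 25.5, 35.9, 28.8 and 35.4 (log2 2.65, SE 0.18, adjusted p = 1.87e-22). Drd1a was at 111, 91.5, 109 and 78.7, against 19.5, 12.8, 27.4 and 21.4 (log2 2.30, SE 0.26, adjusted p = 4.91e-12). Neither gene's groups overlapped. Tac1 was higher by less (log2 0.62, SE 0.12, adjusted p = 1.47e-05), with overlapping groups of 411 ± 72.0 and 269 ± 79.4, and its adjusted p was 0.105 without the library block. Ebf1, a transcription factor of direct pathway neurons, passed at log2 0.95 (adjusted p = 0.0356) and no longer did without library 1 (0.105) or library 4 (0.533).

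Of 4 tested indirect pathway genes 3 were higher and none was lower. Penk was at 1381, 1937, 2570 and 3083 CPM, against 485, 608, 376 and 666 (4.11-fold, log2 2.04, SE 0.09, adjusted p = 3.31e-35). Gpr6 was at 55.5, 53.4, 65.2 and 50.9, against 6.00, 7.54, 5.91 and 5.62 (log2 3.15, SE 0.36, adjusted p = 1.27e-11). All 4 libraries were higher for both genes, without overlap. Sp9, a transcription factor of indirect pathway neurons, passed barely (log2 0.87, adjusted p = 0.0488) and did not pass without any 1 of the 4 libraries (adjusted p from 0.0501 to 0.534). Drd2 and Adora2a were too sparse for the filter. Adora2a had 9 UMIs in the 218 cells, in every library, and 1 in the 2065 others. Drd2 had 3 UMIs in each group, which is at the floor.

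Within the Ppp1r1b and Crym neurons, genes of the 2 pathways lay largely in different cells. A Drd1a UMI was found in 55 cells and a Penk UMI in 108, and both in 10. Penk was detected in 18.2% of the cells with Drd1a and in 60.1% of those without. Pdyn showed the opposite pattern, 70.9% with Drd1a and 19.0% without, and so did Tac1, 67.3% and 14.7%. Of the 36 cells with Gpr6, 29 had Penk and 4 had Drd1a. None of the 9 cells with Adora2a and none of the 3 with Drd2 had Drd1a. All 3 cells with Drd2 and 4 of the 9 with Adora2a had Gpr6, and no cell had both Drd2 and Adora2a. Drd1a was found in 25.2% of all 218 cells, so its absence from 9 and 3 cells says little. Cells with Drd1a were deeper, with a median of 4004 UMIs against 3324, and the part of depth in these shares was not tested. These splits carry no test, since they were described after the cells' values were seen.

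The levels differed in the same way. Penk was at 856, 397, 122 and 326 CPM in the cells with Drd1a and at 1626, 2560, 3609 and 3648 in the 163 cells without, so the ranges did not overlap. Tac1 was at 1214, 768, 802 and 1277 with Drd1a and at 85.3, 150, 361 and 195 without. Pdyn was at 341, 265, 389 and 489 with and at 118, 257, 51.6 and 112 without, nearly equal in library 2. Rarb was at 87.3, 79.5, 267 and 245 with Drd1a and at 32.5, 21.4, 61.9 and 55.8 without, and was higher in each library. Arpp21 did not split the same way in each library (4698, 2754, 3743 and 5463 with, 3231, 3128, 2279 and 2683 without). In the 12 cells with Drd2 or Adora2a and no Drd1a, Penk was at 7023 ± 2484 CPM and neither Tac1 nor Pdyn had a UMI. The comparison of Drd1a cells with Drd2 or Adora2a cells had no library with 10 cells on both sides and was not tested.

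**Figure D3:**
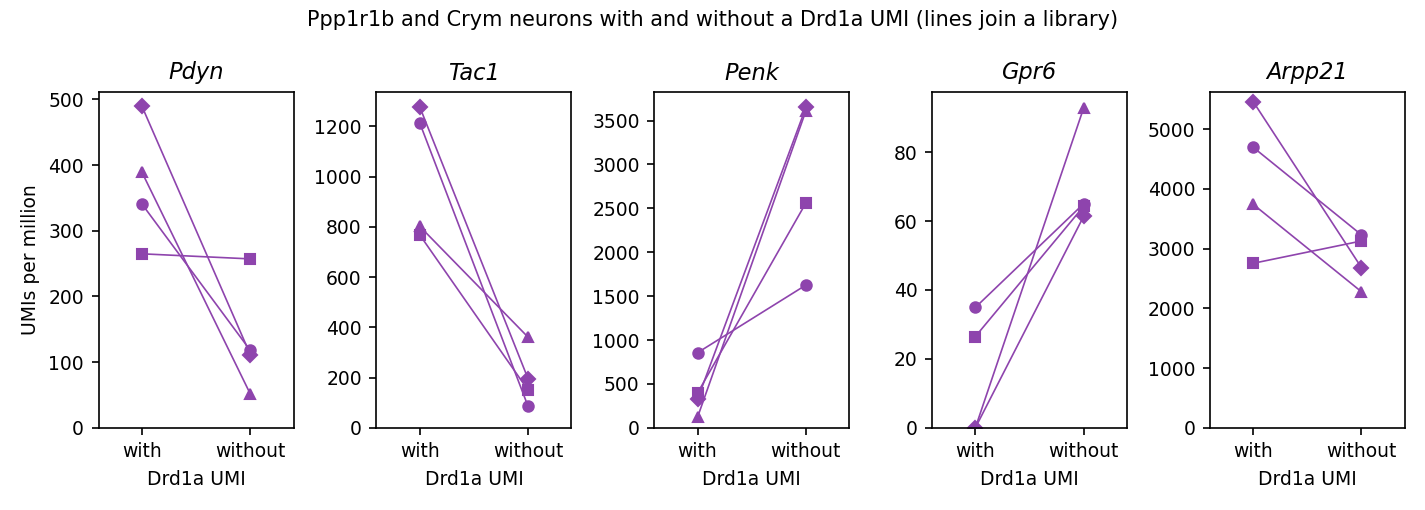
CPM of 5 genes in Ppp1r1b and Crym neurons with a Drd1a UMI (55 cells) and without (163 cells), with lines that join the values of a library. Tac1 falls and Penk rises from left to right in all 4 libraries, Pdyn falls in all 4 but by little in library 2, and Arpp21 goes both ways.

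Transcription factors of the lateral ganglionic eminence, the embryonic source of spiny neurons, were higher for 11 of 19 tested genes and lower for 3 (median log2 0.87). Bcl11b, required for spiny neuron differentiation, was at 513, 549, 652 and 713 CPM, against 104, 146, 183 and 191 (log2 2.02, SE 0.11, adjusted p = 4.22e-30). Meis2 was at 815, 1014, 1115 and 847, against 295, 420, 379 and 437 (log2 1.32, SE 0.09). Six3, a factor of indirect pathway neurons, had log2 1.22, and Mef2c, which acts on synapse number, had 1.25, with library 1 no higher than the others (86.0 against 91.9). The lower genes were led by Dlx2 (1 UMI, log2 -4.17) and Dlx1 (8 UMIs in the 218 cells against 1293, log2 -4.04, adjusted p = 7.84e-20), factors of GABAergic precursors that some adult interneurons keep. Without library 1 or library 4, 7 of 19 were higher and 2 lower.

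Genes of interneurons and of the medial and caudal ganglionic eminences were lower, 13 of 15 tested, and 1 was higher (median log2 -2.93). The list held 25 genes, of which 24 were in the data, and those not among the 15 did not pass the low-count filter. Npy, neuropeptide Y, was at 19.4, 38.1, 7.24 and 13.9 CPM, against 745, 352, 331 and 1046 (log2 -5.16, SE 0.21, adjusted p = 4.28e-39). Prox1 had 1 UMI and Lhx8 had 2 UMIs in these cells (log2 -4.69 and -3.66). Such genes passed the filter only through the other GABAergic neurons, so only a fall could be called. The list's count and median rest in part on them. Lhx6, a factor of medial eminence interneurons, had log2 -3.39, Calb2, calretinin, -3.14, and Nr2f2, a factor of the caudal eminence, -2.93. Sst, somatostatin, was at 402, 579.7, 0 and 495 against 994, 389.5, 413 and 1895. It was called lower (log2 -1.29), but library 2 was higher, and DESeq2 gave an adjusted p of 0.45.

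Of 14 tested BNST and extended amygdala markers, 10 were lower and none was higher (median log2 -1.10). Without library 1, 6 of 13 were lower and 2 higher, and DESeq2 or no library block gave 6 lower. The nearer cell sets described further on gave a mixed picture. Among 7 tested against Tshz1 and Foxp2 neurons 2 were lower and 1 higher, and among 6 against Six3 neurons also 2 and 1. Compared with Prkcd neurons, 2 of 6 were lower and 3 higher. The median log2 differences were -0.40, -0.46 and 1.36. Beside Gal, Avp, the vasopressin precursor, had 1 UMI against 960 in the other GABAergic neurons (log2 -6.40). Gal and Avp passed the low-count filter only through those neurons, so only a fall could be called. Cck, the cholecystokinin precursor, was at 24.96, 22.9, 36.2 and 4.63 CPM, against 207, 129, 347 and 170 (log2 -3.27, SE 0.24, adjusted p = 4.83e-21). Zic1, a zinc finger factor, had log2 -2.40, and the prolactin receptor Prlr -2.15. The peptide genes Crh, Cartpt, Nts and Tac2 varied between the 4 libraries instead. Tac2 was at 147, 701.7, 355 and 560.1 against 455, 363, 152 and 368, and Nts at 169, 839, 21.7 and 662 against 319, 339, 198 and 372, and neither passed the test. Crh and Cartpt passed as lower (log2 -0.53 and -0.60), yet Crh was higher in 2 of 4 libraries and lost its call without library 1 (log2 0.04, adjusted p = 0.93). Cartpt was higher in library 2 and had an adjusted p of 0.151 without library 1.

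Pnoc, the nociceptin precursor, had 59 UMIs in 22 of the 218 cells. It was at 55.5, 114, 0 and 111 CPM, against 179, 154, 143 and 142 in the other GABAergic neurons (log2 -1.17, SE 0.21, adjusted p = 5.45e-06). It was lower in 4 of 4 libraries, and the groups did not overlap. The call was lost without library 1 (log2 -0.86, adjusted p = 0.0524), without the library block (0.0513) and with DESeq2 (0.364). The 22 cells with Pnoc had Arpp21 at 1632, 1379 and 998 in libraries 1, 2 and 4, below the 3697, 3021 and 3157 of all Ppp1r1b and Crym neurons there. They had 20 UMIs of Penk, 1 of Tac1 and 30 of Pdyn. Oprl1, the nociceptin receptor, was lower (39.3 ± 9.84 against 64.3 ± 11.1, log2 -0.76, adjusted p = 0.0305), and lost its call without library 1 (0.171) or library 4 (0.205).

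Of 13 neuropeptide precursors tested, 3 were higher (Pdyn, Penk and Tac1) and 8 lower. Without library 1 the counts were 5 and 5, with DESeq2 3 and 4, and without the library block 2 and 4. Against the nearer cell sets described further on, where fewer precursors were tested, more were higher than lower. Against Tshz1 and Foxp2 neurons 5 of 9 were higher and none lower, and against Six3 neurons 5 of 8 and none. Against Prkcd neurons 6 of 9 were higher and 1 lower. That most tested precursors were lower was seen in the comparison with all other GABAergic neurons only. Precursors that did not pass the low-count filter against the nearer sets have no value there, so a fall there was not tested. In the list of granins and prohormone processing, 6 of 11 were lower and none was higher, with small differences. Scg3, a granin of dense-core vesicles, had log2 -0.76, Chgb, chromogranin B, -0.68, Scg5 -0.51 and Pcsk1n, an inhibitor of prohormone convertase, -0.48. Without the library block 1 of the 11 was lower.

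Receptors for modulators went both ways. Of 21 tested G protein-coupled receptors 7 were higher and 6 were lower (median log2 0.11), beside 8.98% and 9.04% over all genes. Beside Gpr6 and Drd1a, the muscarinic receptor Chrm1 was at 108, 68.6, 123 and 125 CPM, against 30.3, 32.5, 32.5 and 37.7 (log2 1.71, SE 0.22, adjusted p = 8.35e-10). The muscarinic receptor Chrm2 was at 5.55, 0, 7.24 and 0, against 55.8, 58.5, 54.0 and 48.3 (log2 -3.89, SE 0.52, adjusted p = 2.53e-09). The 2 muscarinic receptors thus differed in opposite directions, with no overlap for either. Grm5, a metabotropic glutamate receptor of spiny neurons, had log2 0.76, and the cannabinoid receptor Cnr1 had -0.99.

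Thyroid hormone genes other than Crym were higher for 7 of 8 tested, and none was lower (median log2 1.03). Of 5 tested against each nearer cell set described further on, 4 were higher against Tshz1 and Foxp2 neurons, 1 against Six3 neurons and none against Prkcd neurons (medians 1.15, 0.32 and 0.21). Over all genes, 8.60%, 8.15% and 2.75% were higher in these comparisons. The last rests on 29 Prkcd neurons of 2 libraries, so none of 5 says little. Dio3, which inactivates the hormone, was at 38.8, 38.1, 50.7 and 32.4 CPM, against 3.30, 4.64, 2.96 and 6.74 (log2 3.16, SE 0.43, adjusted p = 5.11e-09). Klf9, a hormone-induced transcription factor, had log2 1.41 and the receptor Thrb had 1.25, both without overlap. Nrgn, neurogranin, a calmodulin-binding hormone target, had 0.81. The receptor Thra differed by 0.42 and lost its call without library 1 (adjusted p = 0.0898). In the list of retinoic acid handling, 3 of 6 tested genes were higher and none was lower. Rarb was at 49.9, 38.1, 123 and 87.9, against 7.20, 4.06, 6.65 and 9.55. Rxrg, a partner receptor, had 0.79 and lost its call without library 1 (0.111) or library 4 (0.133).

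Postsynaptic genes of dendritic spines were higher for 13 of 20 tested, and none was lower (median log2 0.76). Baiap2, an actin regulator of spines, was at 455, 419.5, 782 and 727 CPM, against 142, 114, 163 and 241 (log2 1.84, SE 0.11, adjusted p = 1.29e-26). Itpka, a kinase of spines, had log2 2.03, dendrin (Ddn) 1.89, Homer1 1.19 and the actin scaffold Ppp1r9a 1.17. Among 10 spine genes tested against Tshz1 and Foxp2 neurons 7 were higher and 1 lower, and among 10 against Six3 neurons 6 and none. Compared with Prkcd neurons, 3 of 12 were higher and none lower. The median log2 differences were 0.99, 0.58 and 0.03. Over all genes, 8.60%, 8.15% and 2.75% were higher in these comparisons. 

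Ion channels were mixed. Of 30 tested potassium and sodium channel genes 7 were higher and 5 lower, and 2 were lower without library 1, with DESeq2 or without the library block. Over all genes, 440 of 8954, 342 of 8945 and 301 of 8945 were lower in those settings. In thinned cells 1 of 21 was higher and none lower, beside 251 higher and 212 lower of 4351 over all genes. Beside Scn4b, Kcnj4, an inward rectifier of spiny neurons, was at 13.9, 22.9, 50.7 and 69.4 CPM, against 4.20, 2.90, 5.91 and 12.4 (log2 2.49, SE 0.43, adjusted p = 1.95e-06). Kcna1 had log2 1.48 and Kcnip2, a subunit of A-type channels, had 1.43. Kcnip1 (-1.66) and Kcnc1, a channel of fast-spiking cells (-1.26), were lower. Of 21 calcium channel genes 7 were higher and 1 lower, beside 8.98% and 9.04% over all genes. The list was led by Cacng3 (1.58), with Cacng2, its relative among AMPA receptor auxiliary subunits, at -1.07.

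Over all genes, 8.98% were higher and 9.04% lower. Of 13 tested GABA receptor subunits 5 were higher and 3 lower, and 3 were higher without library 1. Gabrd was at 27.7, 61.0, 65.2 and 74.1 CPM, against 4.80, 5.22, 3.70 and 1.69. Gabra4, its partner in receptors outside the synapse, was at 180, 130, 167 and 171, against 73.2, 49.3, 63.6 and 51.1 (log2 1.44, SE 0.17). Neither gene's groups overlapped. Gabra2 had log2 0.86 and Gabrq -1.72. Of 14 glutamate receptor subunits 4 were higher and 3 lower. Without library 1 or library 4, 2 were higher, and without the library block 1. Grik1, a kainate receptor subunit, had 2 UMIs in the 218 cells and was at 89.6 ± 22.4 CPM in the others (log2 -5.12, SE 0.49, adjusted p = 3.29e-15). Grin2b had 0.71 and Gria4 -0.92.

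Some genes of both striatal compartments were higher. All 3 tested striosome genes (Pdyn, Lypd1 and Tac1) and 2 of 5 matrix genes (Epha4 and Id4) were higher. The striosome list held 6 genes, of which Oprm1, Kremen1 and Sema5b were not tested, and Pdyn and Tac1 are also direct pathway genes. The matrix genes Calb1, Sv2b and Sgk1 did not pass (median log2 of the 5 matrix genes 0.34). Lypd1 was at 701.6, 1022, 717 and 782 CPM, against 297, 387, 282 and 439 (log2 1.2004, SE 0.09). Epha4, an ephrin receptor, was at 266, 221, 463 and 458, against 88.3, 114, 157 and 173 (log2 1.44, SE 0.12). Of 15 calcium-binding protein genes 7 were higher, among them Necab2 (1.60), and 6 lower, among them S100a10 (-2.50).

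Immediate early genes, which respond to activity and to tissue dissociation, were higher for 9 of 14 tested and lower for 1. Egr4 was at 33.3, 83.9, 195 and 60.2 CPM, against 9.91, 11.6, 17.0 and 24.7 (log2 2.35, SE 0.31, adjusted p = 1.11e-09). Library 3 was the highest for Egr4, Nr4a1 (log2 1.95), Arc (1.85) and Egr1 (1.04). Fosb passed (1.69) but not without library 3 (adjusted p = 0.378). Jun was the gene that was lower (-0.47), and it lost its call without library 1, 2 or 4 (adjusted p from 0.0679 to 0.172). Without library 3 the list still had 8 of 14 genes higher and 1 lower, and without the library block 4 and none. Fewer of these genes were tested against the nearer cell sets described further on. Over all genes, 8.60% were higher and 6.48% lower against Tshz1 and Foxp2 neurons, and 8.15% and 6.19% against Six3 neurons. Against Prkcd neurons the shares were 2.75% and 2.58%. Among 5 tested against Tshz1 and Foxp2 neurons 2 were higher and 1 lower, and among 4 against Six3 neurons also 2 and 1. Compared with Prkcd neurons, none of 6 was higher and 3 were lower. The median log2 differences were 0.33, 0.63 and -1.09.

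Markers of other cell types were summed over each list. Astrocyte markers made up 197 to 738 CPM in the Ppp1r1b and Crym neurons and 314 to 366 in the other GABAergic neurons, against 4512 to 7283 in the non-neuronal barcodes, and 8 of 9 were detected, with Gfap at 0. Of the 5 tested 4 were higher, among them Slc1a3, Ppap2b and Slc1a2 (log2 2.22, 0.91 and 0.62), and Aldoc was lower (-2.40). Slc1a3 was at 36.1, 38.1, 86.9 and 4.63, against 5.10, 1.74, 15.5 and 12.4. Without library 3, 1 of the 5 was higher. With the doublets called by Scrublet left out none of the 4 then tested was, with Ppap2b at log2 -0.51. With the 18 Ppp1r1b and Crym neurons and 346 others that held 3 or more astrocyte UMIs left out, 1370 genes passed, of which 669 were lower. Crym itself was at 88.3 ± 35.9 CPM in the non-neuronal barcodes, where Ppp1r1b was at 8.30 ± 3.45.

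Endothelial and mural markers ran from 36.2 to 214 in the Ppp1r1b and Crym neurons and from 27.0 to 37.1 in the others, with 8 of 8 detected. The tested one, Itm2a, had a log2 difference of 1.60. Oligodendrocyte markers ran from 236 to 1134 and from 266 to 1425, with all 9 detected, against 93086 to 111196 in the non-neuronal barcodes. Of 6 tested, none passed with edgeR or DESeq2, and 3 were lower without library 1. Microglial markers reached at most 30.5, precursor markers of the oligodendrocyte lineage 29.0 and ependymal markers 15.3. Of 6 glutamatergic markers, Slc17a7, Tbr1, Neurod2 and Neurod6 were at 0 and Slc17a6 had 3 UMIs (log2 -2.76). What part these other cell types had in the calls above was not tested beyond the values given.

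The threshold of 2 UMIs fell on a graded scale. Arpp21 averaged 251 ± 27.2 CPM in the 1910 GABAergic neurons without a UMI of either gene and 906 ± 213 in the 147 with 1 UMI, just outside. It averaged 1828 ± 1452 in the 66 with 2 UMIs, just inside, 2993 ± 1025 in the 82 with 3 to 5 and 4915 ± 1008 in the 70 with 6 or more. Foxp1 averaged 49.9 ± 15.6, 99.9 ± 69.7, 107 ± 28.1, 389.9 ± 246 and 633 ± 128 over the same steps, with overlapping ranges at 1 and at 2 UMIs. Bcl11b averaged 136 ± 36.2, 379.9 ± 106, 536 ± 153, 600.1 ± 105 and 689 ± 43.3. Penk averaged 455 ± 121, 1425 ± 448, 1477 ± 624, 2536 ± 1616 and 3184 ± 1061. Pnoc followed no single order, with 163 ± 18.5 in the cells without a UMI, 57.3 ± 31.8 with 1, 86.0 ± 99.9 with 2, 114 ± 79.5 with 3 to 5 and no UMI in the 70 cells with 6 or more. A further 8 cells had 2 or more UMIs but also 2 or more of Prkcd and were left out by the rule.

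**Figure D4:**
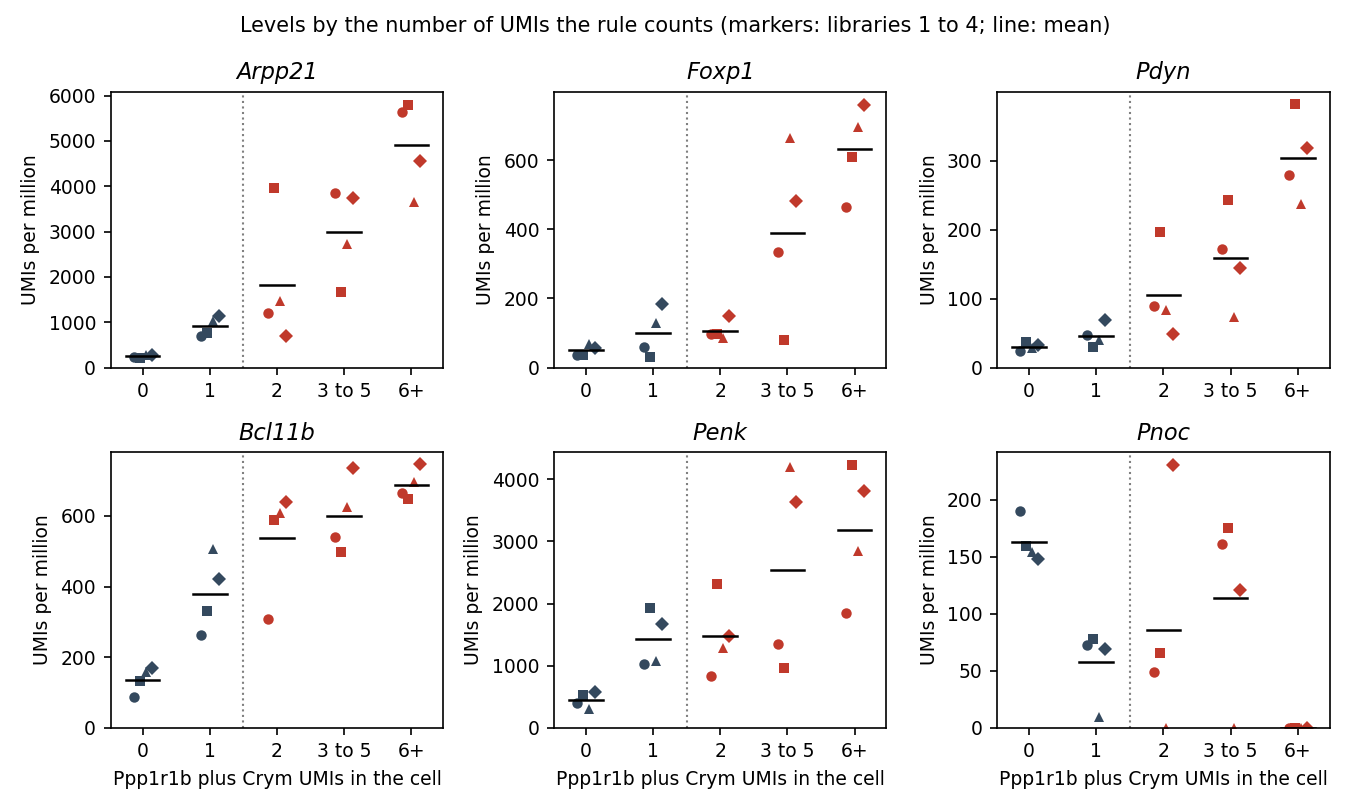
CPM of 6 genes by the number of Ppp1r1b and Crym UMIs in the cell, 1 marker a library and a line at the mean, with the dotted line at the threshold of 2. Arpp21 goes from a mean of 251 at 0 UMIs to 4915 at 6 or more, and Pnoc is highest at 0 UMIs (163) and at 0 CPM at 6 or more.

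Cells that qualified by 1 of the 2 genes differed among themselves. In the 32 with Crym alone, Arpp21 was at 1757, 1409, 1114 and 477 CPM in libraries 1 to 4. In the 46 with Ppp1r1b alone it was at 1742, 1496, 2333 and 3527, and in the 140 with both at 4429, 4280, 3345 and 3736. Arpp21 was thus highest in the cells with both in each library. Penk was at 757, 826, 594 and 365 with Crym alone and at 1449, 1286, 1994 and 4379 with Ppp1r1b alone, higher with Ppp1r1b in every library. Gabrd had no UMI with Crym alone and 37 in the cells with both. Only library 4 had 10 cells of each kind with a single gene, so no test was made, and a cell with a single gene can also lack the other by depth (median 3239, 2923 and 3754 UMIs).

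The nearest cell sets were other GABAergic neurons with at least 2 UMIs of Tshz1 and Foxp2 together (152 cells) or of Six3 (129 cells), factors that also belong to the lateral eminence. Each set left out cells with 2 or more UMIs of the other set's genes or of Prkcd, which took them from 161 and 145 cells. Of the 218 Ppp1r1b and Crym neurons, 38 met the limit for Tshz1 and Foxp2 and 37 that for Six3, and they stayed among the Ppp1r1b and Crym neurons. Against the Tshz1 and Foxp2 neurons 540 of 3580 genes (15.1%) differed, 308 higher (8.60%) and 232 lower (6.48%). Ramp1, a receptor partner of calcitonin-family peptides, was at 269, 297, 246 and 249.9 CPM in the Ppp1r1b and Crym neurons and at 22.2, 29.8, 12.2 and 30.2 in the Tshz1 and Foxp2 neurons (log2 3.53, SE 0.28, adjusted p = 1.12e-10). Arpp21 (log2 2.90) and Tac2 (2.87) followed. The largest falls were Grik1 (-5.14), Dlx1 (-3.61) and Gpx3, a secreted glutathione peroxidase (-3.39). Foxp1 (2.81), Bcl11b (1.93) and Penk (1.58) were also higher, and Meis2 by less (0.65). Without library 1 the counts were 181 and 127.

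Against the Six3 neurons 475 of 3312 genes (14.3%) differed, 270 higher (8.15%) and 205 lower (6.19%). Ramp1 again led (266 ± 23.5 against 17.5 ± 8.78 CPM, log2 3.62, SE 0.29, adjusted p = 1.28e-08), followed by Col6a1 (3.55) and Pcp4l1, a calmodulin-binding peptide (3.37). Calb2 (-3.31), Gpx3 (-3.27) and Aldoc (-2.38) were lower. Drd1a (2.99), Pdyn (3.22) and Arpp21 (3.16) were higher, and Penk by log2 1.38. Of 20 tested genes of cyclic AMP and calcium signalling, 19 were higher against the Tshz1 and Foxp2 neurons and 18 against the Six3 neurons (medians 1.41 and 1.17). The comparisons share the Ppp1r1b and Crym neurons, so they are not independent of each other. Pnoc did not pass in either (log2 -0.40 and -0.42). Without library 1 the counts against the Six3 neurons were 164 and 85.

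**Figure D5:**
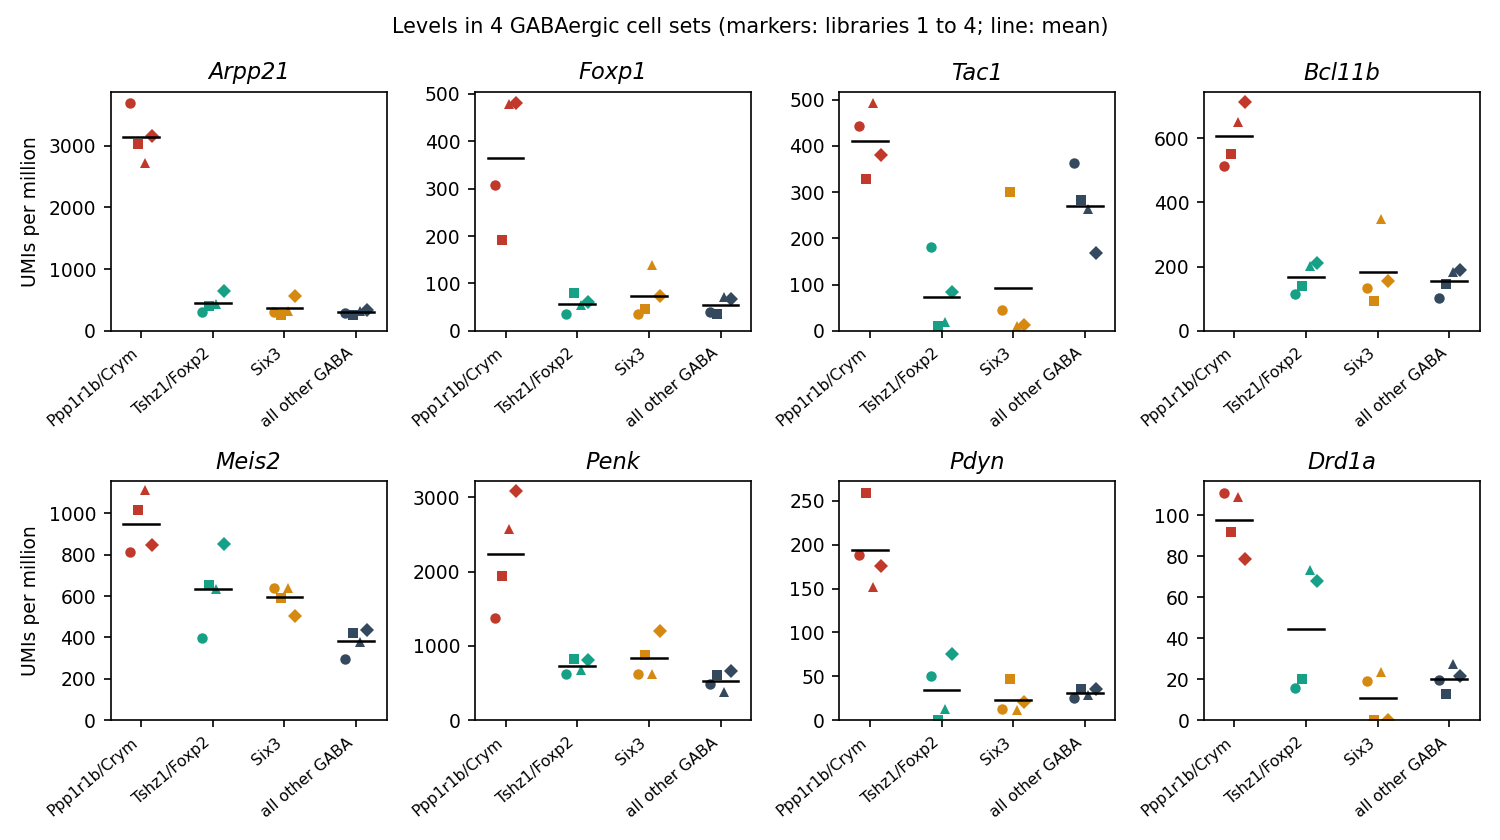
CPM of 8 genes in Ppp1r1b and Crym neurons, Tshz1 or Foxp2 neurons, Six3 neurons and all other GABAergic neurons, 1 marker a library and a line at the mean of 4. Arpp21 and Bcl11b of the Ppp1r1b and Crym neurons lie above every library of the other sets, while Meis2 overlaps with the Tshz1 or Foxp2 neurons.

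Prkcd neurons could be compared in libraries 2 and 4, with 29 cells. Here 157 of 2949 genes (5.32%) differed, 81 higher (2.75%) and 76 lower (2.58%). In data simulated at these depths, with the same spread set for every gene, none of 113 genes changed 2-fold was recovered. Few real differences of that size could thus be seen. Of 20 tested genes of cyclic AMP and calcium signalling 7 were higher and 1 was lower (median log2 0.69). Arpp21 was at 3021 and 3157 CPM, against 162 and 352 in the Prkcd neurons (log2 3.66, SE 0.23, adjusted p = 6.51e-53). Tac2, Sst and Pdyn, which had no UMI in the Prkcd neurons, were at least 30.0-, 25.7- and 10.1-fold higher against a floor of 3 counts over the group. Such genes passed the low-count filter only through the Ppp1r1b and Crym neurons, so only a rise could be called. In those neurons Sst was at 579.7 and 495 CPM in libraries 2 and 4. In libraries 1 and 3, which did not enter, it was at 402 and 0. Tac2 was at 701.7 and 560.1, and at 147 and 355 in libraries 1 and 3. Against all other GABAergic neurons Sst was called lower (log2 -1.29), Tac2 did not pass and Pdyn was higher (log2 2.65). Igfbp2 (-5.23), Nptx1 (-4.91) and Chodl (-3.75) were lower. Bcl11b differed by 0.90 (adjusted p = 0.0399), with Prkcd neurons at 173 and 556 against 549 and 713.

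The counting was not stated to use strand, and several named genes overlap a gene on the other strand that is in the tables too. These include Ppp1r1b, Arpp21, Penk, Rarb, Gabra4, Grin2b, Hpca and Lypd1, whose counts may share reads with the partner. How many reads fall in the shared stretch was not tested.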

How the data were processed

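Drop-seq libraries of 4 pools of BNST punches were analysed. The authors deposited raw UMI counts per gene and barcode, 1 table a library. Per the submitters' processing notes, bcl2fastq 2.18.0.12, STAR 2.4.2a and Picard 2.2.4 were used with mm10 (GRCm38). The annotation, the strand setting and the authors' choice of barcodes are not given in the sources used here. The tables held 10200 barcodes and 14018026 UMIs (2640399 to 5652342 a library), and 11 barcode sequences occurred in more than 1 library, none among kept barcodes. Gene positions are from GENCODE vM21 (GRCm38), which held 93.5% of the gene names.

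The deposited counts were added up over the cells of each class in each library, and the sums were fitted with edgeR 4.0.16 in R 4.3.3 (quasi-likelihood, TMM scaling, filterByExpr, Benjamini-Hochberg adjustment over all tested genes). The library was a block, because both sums of a library come from the same pool of mice. Only libraries with 10 cells in both classes entered a comparison. Genes used to choose the cells (11 and the mitochondrial genes) had no test. Counts were also simulated with 200 genes changed 2-fold, of which 143 passed the low-count filter in the comparison with other GABAergic neurons. Of these 143, edgeR recovered 50.3% and DESeq2 1.42.0 31.5%. The simulation set the same spread for every gene and did not estimate it from the data. The shares are therefore not the power of the tests on the real counts. A further step used Scrublet in scanpy 1.11.5 with an expected doublet rate of 0.05, which marked 58 of 4239 barcodes, and no barcode was removed for it.

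Named genes were the 4 markers, the 10 largest differences in each direction that had the same sign in all 4 libraries, listed genes past the threshold, the 3 largest for other comparisons, and 8 dopamine, peptide and nociceptin genes whatever their result. Some genes that meet this rule are not reported here. The cells and the 28 gene lists were chosen with earlier results of these data known. Alternatives were other filters, choice rules, comparison cells, scalings, DESeq2, no block and each library left out. Tests of cells with Crym alone against Ppp1r1b alone and of Drd1a against Drd2 or Adora2a cells were not run, for want of libraries with 10 cells.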

Additional observations from a re-analysis of the deposited data

Results flagged for a closer look

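In 6 of 123 sets of 4 library values searched, 1 library stood apart from the other three by Dixon's criterion, where chance gives about 1 in 20 (6.15 sets) for values on a continuous scale. For 5 genes that are nearly absent from the Ppp1r1b and Crym neurons, the UMIs came from a single library and the others were at 0. With only 1 or 2 UMIs in all 218 cells, a single library standing apart is close to fixed for these genes, and the chance rate does not apply to them. These were Dlx2 at 7.63 CPM and Prox1 at 7.63 CPM in library 2, Lhx8 at 14.5 CPM and Avp at 7.24 CPM in library 3, and Zic4 at 9.26 CPM in library 4. Grin2b, an NMDA receptor subunit, was at 608 CPM in library 3, against 311 to 333 in the others.

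Ppp1r1b and Crym UMIs also occurred in barcodes that no comparison used. Of 5961 barcodes outside the gene and mitochondrial limits, 17 had 2 or more UMIs of the 2 genes. Of 206 neurons without a GABA gene UMI, 3 did. Of 1750 kept barcodes below the neuronal limit, 74 did, and 51 of these also held 3 or more astrocyte marker UMIs.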

How the results depend on the processing

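Against the other GABAergic neurons, 803 genes were higher and 809 lower. Counts moved by over 1.5 times in these settings: 495 lower at a neuronal limit of 1.2%, 468 higher and 480 lower with Crym alone choosing the cells, 251 and 212 with cells thinned to 1000 UMIs, and 472 and 342 with DESeq2. Without the replicate block 393 genes were higher and 301 lower. With each library left out in turn, 519 to 756 were higher and 440 to 732 lower, lowest without library 1. Without the low-count filter, 609 were higher and 1102 lower, so 35.6% of calls were higher against 49.8%, and the median log2 difference of all genes was -0.29. Against Tshz1 or Foxp2 neurons the ranges over libraries left out were 181 to 269 and 127 to 219, and against Six3 neurons 164 to 302 and 85 to 190. With Prkcd neurons, leaving 1 library out leaves a single library and gives no value. The share of GABAergic neurons was 6.43% at 3 or more UMIs, 4.37% with thinned cells, and 8.66% to 10.04% with libraries left out. The excess of 390 UMIs and 151 genes a cell became -111.75 and -47.1 with an 800-gene minimum.

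Over all alternatives, 2388 values of named genes were computed, of which 2239 kept their direction and side of the threshold, 130 no longer passed, 6 newly passed and 13 reversed. Reversed log2 differences were, for Nts, -1.28 (Crym alone), -0.31 (DESeq2) and -0.11 (without cells with astrocyte UMIs, an alternative added after seeing the data). For Tac2 they were -0.069 (Ppp1r1b alone) and -0.21 (without cells with astrocyte UMIs), and for Cartpt 0.072 (mitochondrial limit of 5%). With each library left out in turn, Nts ran from -0.19 to 0.67 (below 0 without library 2 or 4, where it was -0.079), Tac2 from -0.045 (without library 2) to 0.88, and Crh from -0.87 to 0.036 (without library 1). For Ppap2b they were -0.51 (doublets left out), -1.57 (Ppp1r1b alone) and -0.11 (mitochondrial limit of 5%). The cause of these changes was not tested. Depth limits the sparse genes, with 3 counts over the 218 cells worth 3.55 CPM.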
